A study of Mus musculus with 24 samples.

Results

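AMP-activated protein kinase (AMPK) was followed through the transcripts of its 7 subunit genes, out of 19938 genes read by the arrays. The members are the whole gene family: the catalytic α subunits Prkaa1 and Prkaa2, the scaffold β subunits Prkab1 and Prkab2, and the nucleotide-binding γ subunits Prkag1, Prkag2 and Prkag3. For a gene with several probe sets the one to be used was chosen by its mean log2 intensity over the 24 arrays, the highest being taken, but each of the 7 genes was read by 1 probe set that the annotation gives to it alone. All 7 lay above the dim limit, the 30th percentile of an array over all probe sets, on every array, so no member was lost to a filter, and the choice used no difference between groups.

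Messenger RNA of male mice aged 40 to 42 days was measured with Affymetrix arrays in 4 groups of 6: quadriceps of nebulin conditional knockout (cKO) mice, quadriceps of controls, soleus of cKO mice and soleus of controls. Every mouse, controls included, was homozygous for the conditional nebulin (Neb) allele on a mixed background given as C57BL/6J and 1219S6/SvEvTac. The cKO mice also carried 1 copy of a MCK-Cre transgene, which the controls lacked. The muscle creatine kinase promoter of this transgene is active in muscle fibres, so cells of other types keep the allele intact. The submitters call the 6 samples of a group biological replicates, and describe the quadriceps as clearly smaller in cKO mice and the soleus as not significantly smaller.

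AMPK is a trimer of 1 α, 1 β and 1 γ subunit that senses a fall in cellular energy. AMP and ADP bind the γ subunit, the α subunit is phosphorylated by an upstream kinase, and the active enzyme turns on glucose uptake and fat oxidation while it holds back synthesis. In rodent muscle fibres the α2 and β2 proteins make up most of the enzyme, the γ1 protein is the common γ partner, and the γ3 protein is largely restricted to fast glycolytic fibres. The α1 and β1 proteins are widespread in other cell types. An array reads the transcript and neither the trimer nor its phosphorylation.

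The targeted transcript followed the labels: Neb averaged 10.84 ± 0.23 in cKO quadriceps and 12.29 ± 0.17 in control quadriceps, and 11.24 ± 0.20 in cKO soleus and 12.38 ± 0.21 in control soleus (log2 intensity, SD, n = 6 each), with no overlap of arrays in either muscle. The muscle labels also held against fibre genes. In soleus minus quadriceps of controls, slow myosin Myh7 differed by 2.78, slow troponin Tnnt1 by 2.65, fast myosin Myh4 by -2.65 and fast troponin Tnnt3 by -0.35, all with limma adjusted p under the 0.05 threshold used throughout. Arrays of 1 group correlated with r between 0.963 and 0.993. The array of quadriceps control 4 stood apart, with the lowest quality weight of the 24 (0.207, against 0.389 for the next) and the lowest median correlation with its own group (0.973), and the results below that it changes most are also given without it. Values below are log2 intensities, and since each probe set has its own response, levels are compared between groups and not between genes.

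Prkab2 and Prkag3 carry the muscle pattern of the family and Prkaa2 the loss seen in both knockout muscles, so the promoter sequences of these genes are shown, from RefSeq on build GRCm38.p6. Each window runs from 250 bases before an annotated start of transcription to 50 after it, on the strand of the gene. Prkab2 lies on chromosome 3 between positions 97658211 and 97673812, and its window is chr3:97657962-97658261 on the plus strand. Prkag3 lies on chromosome 1 between 74738922 and 74749471, with its window at chr1:74748906-74749205 on the minus strand. That window lies wholly within the gene positions given, so its start of transcription is not the outer end of the gene. The bases before that outer end were not examined. Prkaa2 lies on chromosome 4 between 105029649 and 105109898, with its window at chr4:105109849-105110148 on the minus strand. Capitals mark GC boxes (GGGCGG, on either strand) in Prkab2 and Prkaa2 and the E-box (CANNTG) in Prkag3.
Prkab2: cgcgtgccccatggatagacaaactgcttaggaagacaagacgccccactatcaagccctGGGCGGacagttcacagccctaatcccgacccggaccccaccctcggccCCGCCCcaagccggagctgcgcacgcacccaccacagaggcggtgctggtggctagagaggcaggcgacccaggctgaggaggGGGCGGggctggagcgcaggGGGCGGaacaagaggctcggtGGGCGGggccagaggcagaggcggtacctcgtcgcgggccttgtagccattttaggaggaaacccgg
Prkag3: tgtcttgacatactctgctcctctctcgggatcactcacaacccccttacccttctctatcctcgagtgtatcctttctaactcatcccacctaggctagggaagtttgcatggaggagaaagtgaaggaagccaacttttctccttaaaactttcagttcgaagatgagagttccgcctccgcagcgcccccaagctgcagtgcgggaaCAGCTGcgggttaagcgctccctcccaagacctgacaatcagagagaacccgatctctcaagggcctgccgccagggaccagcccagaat
Prkaa2: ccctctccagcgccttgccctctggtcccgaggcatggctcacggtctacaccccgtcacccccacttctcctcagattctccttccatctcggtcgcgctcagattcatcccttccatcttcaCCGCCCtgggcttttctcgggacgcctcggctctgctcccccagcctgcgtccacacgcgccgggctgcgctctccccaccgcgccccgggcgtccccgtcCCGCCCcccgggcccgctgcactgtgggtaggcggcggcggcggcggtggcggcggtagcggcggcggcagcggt

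The Prkab2 window held 5 GC boxes and no E-box, while the Prkag3 window held 1 E-box and no GC box. Over the family, 6 of 9 windows had a GC box (none in those of Prkab1 and Prkag3), against 35.7% of the 32851 promoter windows of all genes. E-boxes were in 5 of 9 windows (those of Prkag1, Prkag2 and Prkag3), against 72.3% of all windows. Prkag2, which has 3 windows, alone held, in 1 of 9 windows each, the MCAT letters (CATTCC, in 14.7% of all windows) and the estrogen-related receptor half-site (AAGGTCA, 4.72%). All windows of Prkag2 lie wholly within its gene positions, so the bases before the outer end of that gene were not examined. No member window matched the MEF2 motif (3.19% of all windows) or TATAAA (13.6%). Both strands were searched and matches may overlap, as an E-box and the MCAT letters do by a base in Prkag2. The windows, with the first of Prkag2, ran from 54.0% G and C in Prkag3 and 54.7% in Prkag1 to 72.7% in Prkaa2 and 82.0% in Prkaa1, with a median of 52.7% over all windows. These are letters in a window and show no binding.

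The α subunits moved apart in knockout muscle: Prkaa2 was lower in both muscles, and Prkaa1 was higher in quadriceps. The lowest, median and highest values of Prkaa2 were 9.27, 9.52 and 9.69 in cKO quadriceps, against 9.33, 10.23 and 10.53 in control quadriceps. Of the controls 5 lay above every cKO array, and quadriceps control 4, at 9.33, lay within the cKO range. The change was -0.67 (SE 0.13, 1.59-fold lower, limma adjusted p = 0.000256), and without quadriceps control 4 it was -0.83 (adjusted p = 8.46e-08). In bulk muscle, fewer cells of a type and less RNA per cell cannot be told apart.

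In the soleus the loss of Prkaa2, the catalytic subunit most typical of fibres, was of like size. Its lowest, median and highest values were 9.19, 9.31 and 9.48 in cKO soleus, against 9.69, 9.98 and 10.15 in control soleus, with no overlap. The change was -0.65 (SE 0.13, 1.57-fold lower, limma adjusted p = 0.000597). Quadriceps and soleus changes differed by -0.02 (95% interval -0.41 to 0.37, limma adjusted p = 0.964), an interval that leaves room for differences of moderate size. Between the control muscles, soleus minus quadriceps was -0.18 (adjusted p = 0.308), but it was -0.35 (adjusted p = 0.00436) without quadriceps control 4, so that array decides the call. In cKO mice soleus minus quadriceps was -0.16 (adjusted p = 0.364).

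Prkaa1 lies on chromosome 15 between positions 5143861 and 5181899 and encodes the widespread catalytic subunit. Lowest, median and highest were 8.34, 8.52 and 8.66 in cKO quadriceps, against 7.29, 8.02 and 8.33 in control quadriceps. The lowest cKO array lay just above the highest control array, and quadriceps control 4 was again the lowest of its group. The gene rose by 0.53 (SE 0.12, 1.45-fold, limma adjusted p = 0.00118), and by 0.40 without that array (adjusted p = 0.00176). The soleus arrays overlapped, and there it averaged 8.32 ± 0.12 in cKO and 8.16 ± 0.22 in controls (SD, n = 6 each), a change of 0.15 that did not pass (95% interval -0.10 to 0.41, limma adjusted p = 0.408). The difference between the muscles, 0.38 (95% interval 0.02 to 0.74), did not pass either (adjusted p = 0.161), although it did with array quality weights (adjusted p = 0.0492), and it was 0.24 without quadriceps control 4.

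Read within each array, the α pair separated the genotypes without overlap in both muscles. In the difference Prkaa2 minus Prkaa1 a log2 shift common to all probe sets of an array drops out. A normalization that depends on intensity does not drop out, and the difference was not recomputed under another one. Although its zero has no meaning across 2 probe sets, its shift between groups does. It came to 0.98 ± 0.13 in cKO quadriceps and 2.18 ± 0.07 in control quadriceps (SD, n = 6 each). In soleus it came to 1.005 ± 0.126 in cKO and 1.81 ± 0.11 in controls (SD, n = 6 each). The shift was thus -1.20 in quadriceps and -0.80 in soleus, while the cKO muscles lay 0.02 apart with overlapping arrays. In controls soleus minus quadriceps was -0.38, without overlap. Quadriceps control 4, low in both genes, had a difference of 2.05, the lowest of its group, whose highest was 2.24, yet above every cKO array of the same muscle (at most 1.16).

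**Figure D1:**
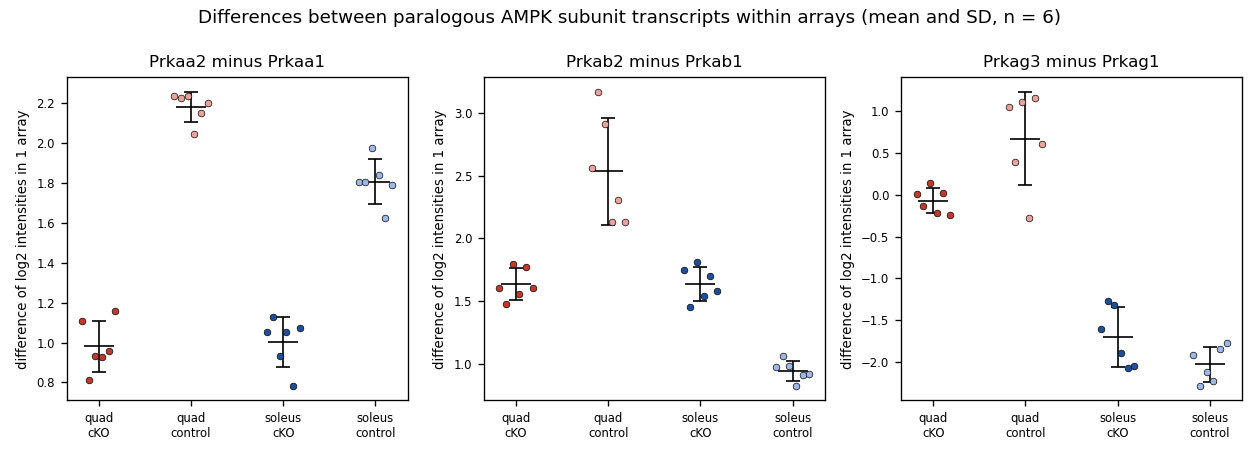
Difference of log2 intensities between paralogous subunits in each array (vertical axes), by group (horizontal axis), with points for arrays and a dash and whiskers for mean and SD (n = 6). Prkaa2 minus Prkaa1 and Prkab2 minus Prkab1 have overlapping arrays in the cKO muscles, with means of 1.63 and 1.64 for the β pair, while each control muscle lies apart from the cKO muscle beside it, and Prkag3 minus Prkag1 keeps the muscles apart in both genotypes.

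Markers of other cells also changed, both in cKO quadriceps, where Prkaa1 rose, and in cKO soleus, where its change was not called. Over all genes kept 22.3% rose and 17.7% fell in cKO quadriceps, and 13.2% rose and 9.94% fell in cKO soleus. Of 12 macrophage markers 10 rose and none fell in cKO quadriceps, and their summed linear intensity ran from 1778 to 2102 in cKO against 1022 to 1662 in controls. In soleus 9 of the 12 rose, with sums of 1279 to 1948 in cKO against 911 to 1178 in controls. Fibro-adipogenic progenitor markers rose in 6 of 8 in each muscle, with quadriceps sums of 9586 to 11615 in cKO and 6388 to 10208 in controls. Satellite cell markers rose in 8 of 8 in quadriceps (sums of 1396 to 1642 in cKO, 874 to 1067 in controls) and in 4 of 8 in soleus. Endothelial markers fell in 6 of 8 in soleus and in none of 8 in quadriceps. Adipocyte markers rose in 4 of 6 in quadriceps and in none of 6 in soleus, smooth muscle and pericyte markers rose in 1 and fell in 4 of 7 in soleus and rose in 1 in quadriceps, and embryonic or regenerating fibre markers rose in 4 of 6 in quadriceps and 6 of 6 in soleus. Single markers moved by more than any subunit, as Mpeg1 did in quadriceps (1.62, macrophages), Mfap5 in soleus (1.60, fibro-adipogenic progenitors) and embryonic myosin Myh3 in quadriceps (5.38). No marker of these lists was below the dim limit on all arrays of a group, and the part of these cells in the subunit values was not tested.

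Of the β subunits Prkab2 changed in opposite directions, lower in cKO quadriceps and higher in cKO soleus. This gene encodes the scaffold subunit that ties the α and γ subunits together in muscle and binds glycogen. Its lowest, median and highest values were 8.36, 8.60 and 8.90 in cKO quadriceps, against 9.20, 9.54 and 9.91 in control quadriceps. Soleus went the other way, with 8.27, 8.54 and 8.66 in cKO against 7.58, 7.69 and 7.90 in controls. In neither muscle did the genotypes overlap, whereas the cKO arrays of the muscles overlapped.

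Prkab2 fell 1.91-fold in cKO quadriceps (log2 change -0.93, SE 0.11, limma adjusted p = 1.78e-07) and rose 1.74-fold in cKO soleus (0.80, SE 0.11, limma adjusted p = 3.90e-06). The difference of these changes, quadriceps minus soleus, was -1.73 (SE 0.16, limma adjusted p = 5.21e-08). Soleus minus quadriceps was -1.83 in controls (SE 0.11, adjusted p = 1.90e-12) and -0.10 in cKO mice (95% interval -0.32 to 0.13, adjusted p = 0.520). The order of levels was therefore control quadriceps, cKO quadriceps, cKO soleus and control soleus, of which the middle groups did not differ beyond their spread. All these calls held under each of the alternatives tried, every left-out array included.

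Prkab1, the β subunit common outside muscle (chromosome 5, positions 116013586 to 116024503), stayed within a narrow range. It averaged 6.98 ± 0.11 in cKO quadriceps and 7.01 ± 0.19 in control quadriceps, and 6.88 ± 0.09 in cKO soleus and 6.78 ± 0.16 in control soleus (SD, n = 6 each), with overlapping arrays throughout. The changes were -0.03 in quadriceps (95% interval -0.21 to 0.14, adjusted p = 0.784) and 0.10 in soleus (-0.07 to 0.28, adjusted p = 0.425). In controls soleus minus quadriceps was -0.24 (limma adjusted p = 0.0355). That call was lost under 4 other settings and without any 1 of quadriceps controls 4, 5 and 6 and soleus controls 2, 3 and 4 (adjusted p up to 0.108). Within arrays Prkab2 minus Prkab1 was 1.63 ± 0.12 in cKO quadriceps and 2.53 ± 0.43 in control quadriceps, and 1.64 ± 0.14 in cKO soleus and 0.94 ± 0.08 in control soleus (SD, n = 6 each). The genotypes did not overlap in either muscle.

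**Figure D2:**
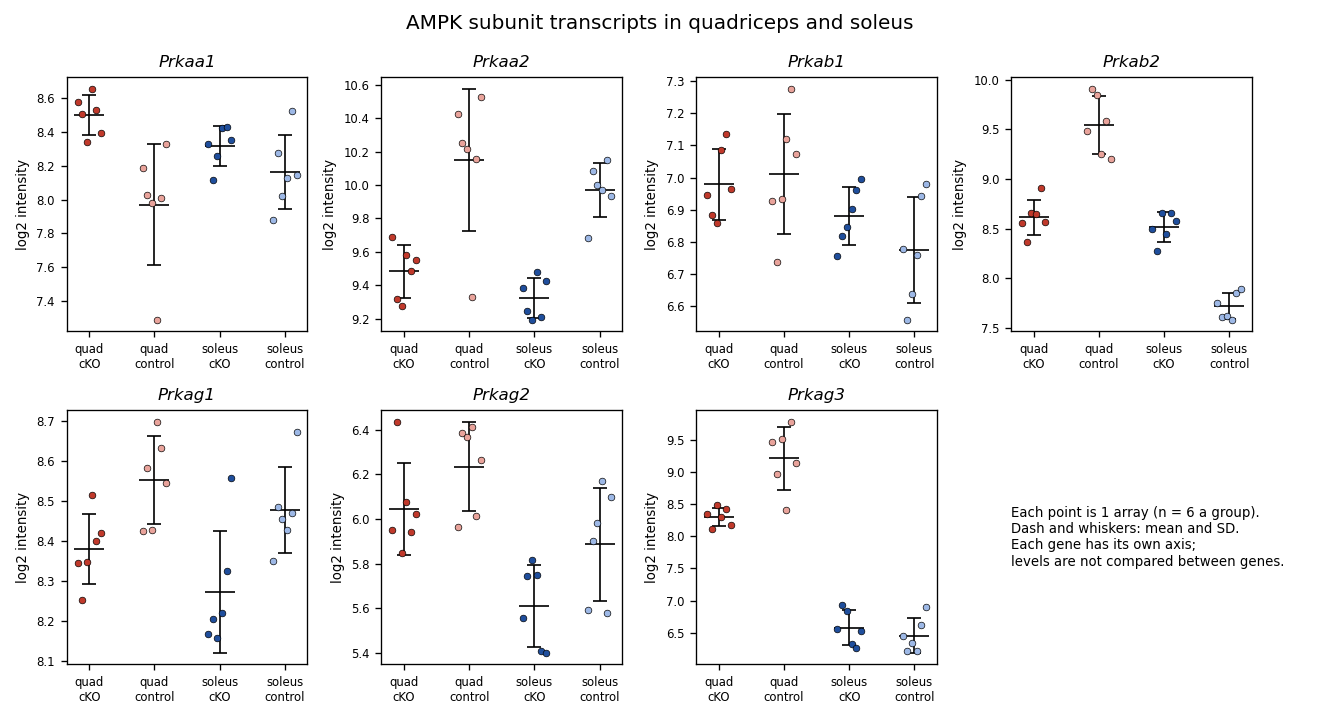
Log2 intensity of the 7 AMPK subunit transcripts (vertical axes, 1 per gene) in cKO and control quadriceps and in cKO and control soleus, with points for arrays and a dash and whiskers for mean and SD (n = 6). Prkab2 means are 8.61, 9.55, 8.52 and 7.72 in that order of groups, and those of Prkag3 are 8.31, 9.22, 6.57 and 6.45.

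Among the γ subunits Prkag3, the one tied to fast glycolytic fibres, had the largest difference between control muscles of the 7 genes and fell in cKO quadriceps. Lowest, median and highest values were 8.12, 8.33 and 8.49 in cKO quadriceps, against 8.41, 9.31 and 9.79 in control quadriceps. Of the controls 5 lay above all cKO arrays, and quadriceps control 4, at 8.41, did not. The change was -0.91 (SE 0.17, 1.88-fold lower, limma adjusted p = 9.26e-05), and -1.07 without that array (adjusted p = 1.56e-06).

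Soleus held far less of the Prkag3 signal and showed no called change. Its lowest, median and highest values there were 6.26, 6.54 and 6.93 in cKO soleus, against 6.21, 6.39 and 6.90 in control soleus, overlapping and all above the dim limit, which was at most 3.72. The change was 0.12 (95% interval -0.22 to 0.46, limma adjusted p = 0.656), and the difference between the quadriceps and soleus changes was -1.03 (SE 0.24, limma adjusted p = 0.00465). Soleus minus quadriceps was -2.77 in controls (SE 0.17, 6.81-fold lower, adjusted p = 1.90e-12) and -1.73 in cKO mice (SE 0.17, 3.33-fold lower, adjusted p = 1.67e-08). Read against Prkag1 within arrays, Prkag3 was at -0.07 ± 0.15 in cKO quadriceps and 0.67 ± 0.56 in control quadriceps, and at -1.70 ± 0.35 in cKO soleus and -2.02 ± 0.21 in control soleus (SD, n = 6 each), with overlap between genotypes in both muscles. In quadriceps the overlap came from quadriceps control 4 (-0.28) alone: the other 5 controls ran from 0.39 to 1.16, above the highest cKO array (0.14), and without it the shift was -0.93 in place of -0.74.

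Prkag1, which encodes the common γ subunit, lies on chromosome 15 between positions 98812797 and 98831508. It averaged 8.38 ± 0.09 in cKO quadriceps and 8.55 ± 0.11 in control quadriceps, and 8.27 ± 0.15 in cKO soleus and 8.48 ± 0.11 in control soleus (SD, n = 6 each). All arrays lay between 8.16 and 8.70, with overlap between genotypes. In soleus the change of -0.20 (SE 0.08, limma adjusted p = 0.0487) just passed, and it did not pass under 4 of 11 other settings or in 10 of 12 fits that left out an array, the exceptions being those without soleus cKO 6 or soleus control 1 (adjusted p up to 0.161 over all settings). In quadriceps the change of -0.17 (SE 0.08, adjusted p = 0.0689) missed the threshold, and passed under 3 of 11 other settings and in 3 of 12 fits that left out an array (quadriceps cKO 4, quadriceps control 1 or quadriceps control 3). Neither value is firm, and the difference between the muscles was 0.03 (95% interval -0.19 to 0.25, adjusted p = 0.884).

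Prkag2 encodes a γ subunit known from inherited heart disease in humans and lies on chromosome 5 between positions 24862735 and 25106282. It averaged 6.05 ± 0.21 in cKO quadriceps and 6.23 ± 0.20 in control quadriceps, and 5.61 ± 0.18 in cKO soleus and 5.89 ± 0.25 in control soleus (SD, n = 6 each), with overlap. The changes of -0.19 in quadriceps (limma adjusted p = 0.195) and -0.27 in soleus (adjusted p = 0.0896) did not pass. The soleus value did pass under 2 of 11 other settings and without soleus control 1 (adjusted p = 0.0364) or soleus control 5 (adjusted p = 0.0411). The quadriceps value reached -0.31 after a second quantile normalization (adjusted p = 0.0431). Soleus was lower than quadriceps, with differences of -0.35 in controls (limma adjusted p = 0.0214) and -0.43 in cKO mice (adjusted p = 0.00685). The first of these calls was lost without quadriceps control 2, soleus control 1 or soleus control 5 (adjusted p up to 0.0625).

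**Figure D3:**
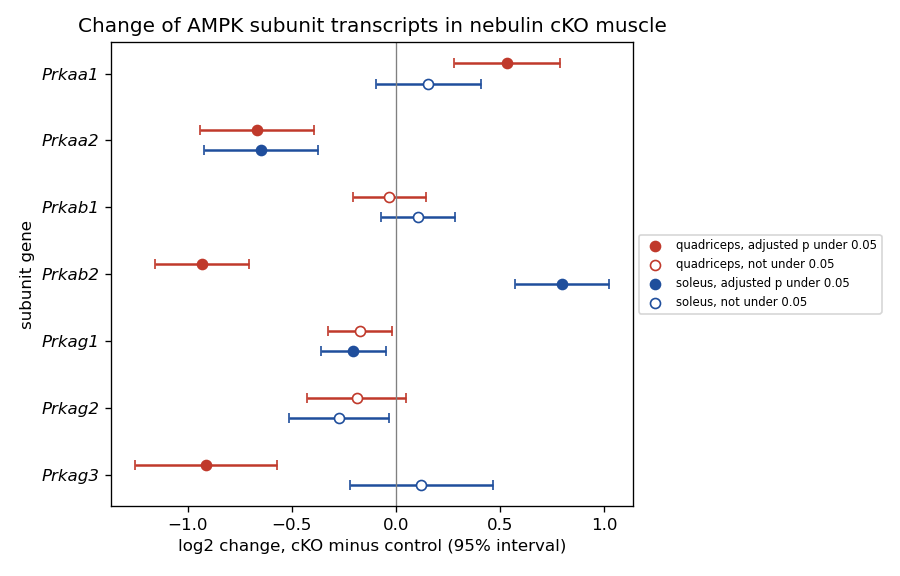
Log2 change of each subunit transcript, cKO minus control (horizontal axis, bars are 95% intervals from limma), in quadriceps (red) and soleus (blue), filled where the adjusted p is under 0.05. Prkab2 lies at -0.93 in quadriceps and 0.80 in soleus, Prkaa2 at -0.67 and -0.65.

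Counted over the family, 1 of 7 subunit genes rose and 3 fell in cKO quadriceps, where 22.3% of all genes kept rose, 17.7% fell and 40.0% passed in either direction. In soleus 1 rose and 2 fell, against 13.2% and 9.94% of all genes, or 23.1% either way. Soleus minus quadriceps was lower for 4 members and higher for none in controls (18.3% and 15.2% of all genes, 33.5% either way). In cKO mice it was lower for 2 and higher for none (16.9% and 11.9%, 28.8% either way). The knockout changes differed between muscles for 2 members, Prkab2 and Prkag3, both more negative in quadriceps (4.89% of all genes, with 7.39% more positive and 12.3% either way). Genotypes did not overlap for 2 members in quadriceps (Prkaa1 and Prkab2, 16.2% of all genes) and for 2 in soleus (Prkaa2 and Prkab2, 12.8%). Without quadriceps control 4 the quadriceps count was 4, with Prkaa2 and Prkag3 added (19.6% of all genes). Soleus and quadriceps did not overlap for 2 members in controls (Prkab2 and Prkag3, 11.7%) and for 2 in cKO mice (Prkag2 and Prkag3, 15.9%), and the count in controls was 3, with Prkaa2 added, without that array (16.7%). The median change of the 7 was -0.19 in quadriceps and 0.10 in soleus, against -0.01 and -0.02 over all genes kept. Of all called quadriceps genes 55.7% were higher, and 37.5% with arrays centred on their 75th percentile, which moved the median of all genes to -0.10. With 7 genes, and so many genes called in the whole table, these counts say little of the family as a whole.

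Fibre genes gave the setting of the β2 and γ3 values. Their counts stand beside 22.3% of all genes higher and 17.7% lower in cKO quadriceps, and 13.2% and 9.94% in cKO soleus. In cKO quadriceps all 10 slow fibre markers rose (median 1.94), with summed intensities of 21282 to 29723 in cKO against 4568 to 12527 in controls, and 7 of 12 fast fibre markers fell while 1 rose (median -0.34). In cKO soleus 9 of 12 fast markers fell and none rose (median -0.60), with sums of 24410 to 30827 in cKO against 33212 to 47419 in controls, and 3 of 10 slow markers rose while 1 fell (median 0.33). The fast marker that rose in quadriceps was Myh2 (1.01), which was at -0.0079 in soleus. In the 6 control soleus arrays fast myosin Myh4 ran from 7.41 to 11.78, Prkab2 from 7.58 to 7.90 and Prkag3 from 6.21 to 6.90. In control quadriceps slow myosin Myh7 ran from 8.98 to 11.12, Prkab2 from 9.20 to 9.91 and Prkag3 from 8.41, in quadriceps control 4, to 9.79. Whether fibre makeup has a part in the subunit changes was not tested.

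Genes whose values ran most like those of each called member over the 24 arrays were ranked by Pearson's r, as a description that group differences and shared arrays can shape. Prkab2 was closest to Sh3bgr (r = 0.943), the translation initiation factor subunit Eif3i (0.938) and Aimp2 (0.935), and most opposed to Akap7 (-0.927). For Prkag3 they were the sodium pump subunit Atp1b2 (0.978), the methyltransferase Setd7 (0.967) and the protease calpain Capn1 (0.964), with the slow light chain Myl3 opposed (-0.945). Prkaa2 ran with Asb13 (0.950), Ubxn2a (0.944) and Ddo (0.934), and Prkaa1 with the kinase Prkx (0.941), Septin2 (0.940) and Tbck (0.933). After group means were subtracted, the closest to Prkab2 were Gtf2h3 (0.798), Setd7 (0.787) and Eml1 (0.776), and to Prkag3 Itm2a (0.780), Khk (0.780) and Adcyap1r1 (0.779). Prkag1 ran with the ATP synthase subunit Atp5g3 (0.864), Tefm (0.861) and Coq3 (0.857). Within the family Prkab2 and Prkag3 had r = 0.836 over the 24 arrays, which was 0.361 after group means were subtracted, and 0.834 and 0.184 without quadriceps control 4. Prkaa1 and Prkaa2 had r = -0.131 over the arrays and 0.892 after subtraction, and without quadriceps control 4, low in both genes, -0.388 and 0.746.

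Upstream of AMPK, the kinase transcripts themselves gave no call apart from Map3k7. The main upstream kinase Stk11 (LKB1) changed by -0.14 in quadriceps (limma adjusted p = 0.247) and -0.11 in soleus (adjusted p = 0.439), and the calcium-dependent kinase Camkk2 by -0.0020 and -0.09 (adjusted p = 0.983 and 0.378). Map3k7 (TAK1), reported to phosphorylate the α subunit, rose by 0.67 in quadriceps and 0.74 in soleus. The pseudokinase partners of LKB1 moved in opposite directions, with Strada higher by 0.57 and 0.64 and Stradb, which fell by 0.95 and 0.47, in quadriceps and soleus in that order. For Map3k7, Strada and Stradb, which are named for their small p, cKO and control arrays did not overlap in either muscle. Of all genes 16.2% did not overlap in quadriceps and 12.8% in soleus. Stradb fell further in quadriceps (difference -0.48, limma adjusted p = 0.00353). Of 7 upstream genes tested 2 rose and 1 fell in each muscle, where 40.0% (quadriceps) and 23.1% (soleus) of all genes were called.

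Of 12 regulators and binding proteins 4 rose and 1 fell in quadriceps (median 0.17), and 5 rose and none fell in soleus (median 0.08). Over all genes 40.0% were called in quadriceps and 23.1% in soleus, so the quadriceps count does not stand out. The sestrin Sesn3, a stress protein that can activate AMPK, rose by 1.84 in quadriceps and 1.05 in soleus (limma adjusted p = 6.54e-11 and 1.94e-06), and Sesn1 by 0.35 and 0.79. The phosphatase Ppm1f, which can remove the activating phosphate, rose by 0.90 and 0.55, and Ppm1a fell by 0.33 in quadriceps. Fnip2, a partner of folliculin that binds AMPK, rose by 0.45 in quadriceps and was at -0.08 in soleus, and Lamtor1, a lysosomal anchor, rose by 0.36 in soleus and was at 0.01 in quadriceps. These lists are described by their counts and were not tested as sets.

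AMPK substrates moved both ways, with 7 of 24 higher and 6 lower in quadriceps and 3 higher and 5 lower in soleus (medians -0.09 and -0.04), against 22.3% and 17.7% of all genes in quadriceps and 13.2% and 9.94% in soleus. Tbc1d1, which restrains glucose transporter vesicles until it is phosphorylated, fell by 0.92 in quadriceps and 0.81 in soleus. Its paralog Tbc1d4 fell by 1.16 in soleus and was at -0.35 in quadriceps (limma adjusted p = 0.130). Ppargc1a, the coactivator of mitochondrial genes, fell by 1.78 in soleus (limma adjusted p = 0.00011) and was at -0.51 in quadriceps (adjusted p = 0.196), though the difference between muscles did not pass (adjusted p = 0.0612). Hdac4, a repressor of fibre genes, rose by 1.06 in quadriceps and was at 0.33 in soleus, the autophagy protein Atg9a fell by 0.60 in quadriceps and was at -0.04 in soleus, and the lipid kinase Pikfyve rose by 0.51 in quadriceps and was at 0.01 in soleus. The kinesin light chain Klc1 rose in both (0.38 and 0.37).

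Transcripts known to rise in muscle when AMPK is activated fell more often than they rose. Of 11 tested 1 rose and 4 fell in quadriceps (median -0.24), and none rose and 8 fell in soleus (median -0.36), beside 22.3% higher and 17.7% lower among all genes in quadriceps and 13.2% and 9.94% in soleus. The 5 called in quadriceps lie near the 40.0% of all genes called there. Hexokinase 2 (Hk2) fell by 0.43 in quadriceps and 0.75 in soleus, the insulin-responsive glucose transporter Slc2a4 by 0.45 and 0.26, cytochrome c (Cycs) by 0.39 and 0.36, and the vessel growth factor Vegfa by 0.49 and 1.06. The fatty acid genes Lpl and Cd36 fell by 0.93 and 0.68 in soleus and were at 0.11 and 0.07 in quadriceps. Endothelial markers also fell in soleus, with sums of 1883 to 2163 in cKO against 2419 to 3812 in controls, and the part of vessel cells in these values was not tested. Pdk4, which spares glucose by inhibiting pyruvate dehydrogenase, was the transcript that rose in quadriceps (0.48), and is named after its value was seen. Ppargc1a is on this list as well as among the substrates.

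Of 14 kinases related to the α subunits 3 rose in quadriceps, 2 rose in soleus and none fell (medians 0.10 and -0.06), shares below the 40.0% and 23.1% called over all genes. Salt-inducible kinase Sik1 rose by 1.53 in quadriceps and 0.80 in soleus, and the brain-type kinase Brsk1 by 0.27 and 0.94. Nuak1 rose by 0.69 in quadriceps and was at 0.52 in soleus (limma adjusted p = 0.108). The plot of pathway transcripts gives every tested gene of these lists.

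**Figure D4:**
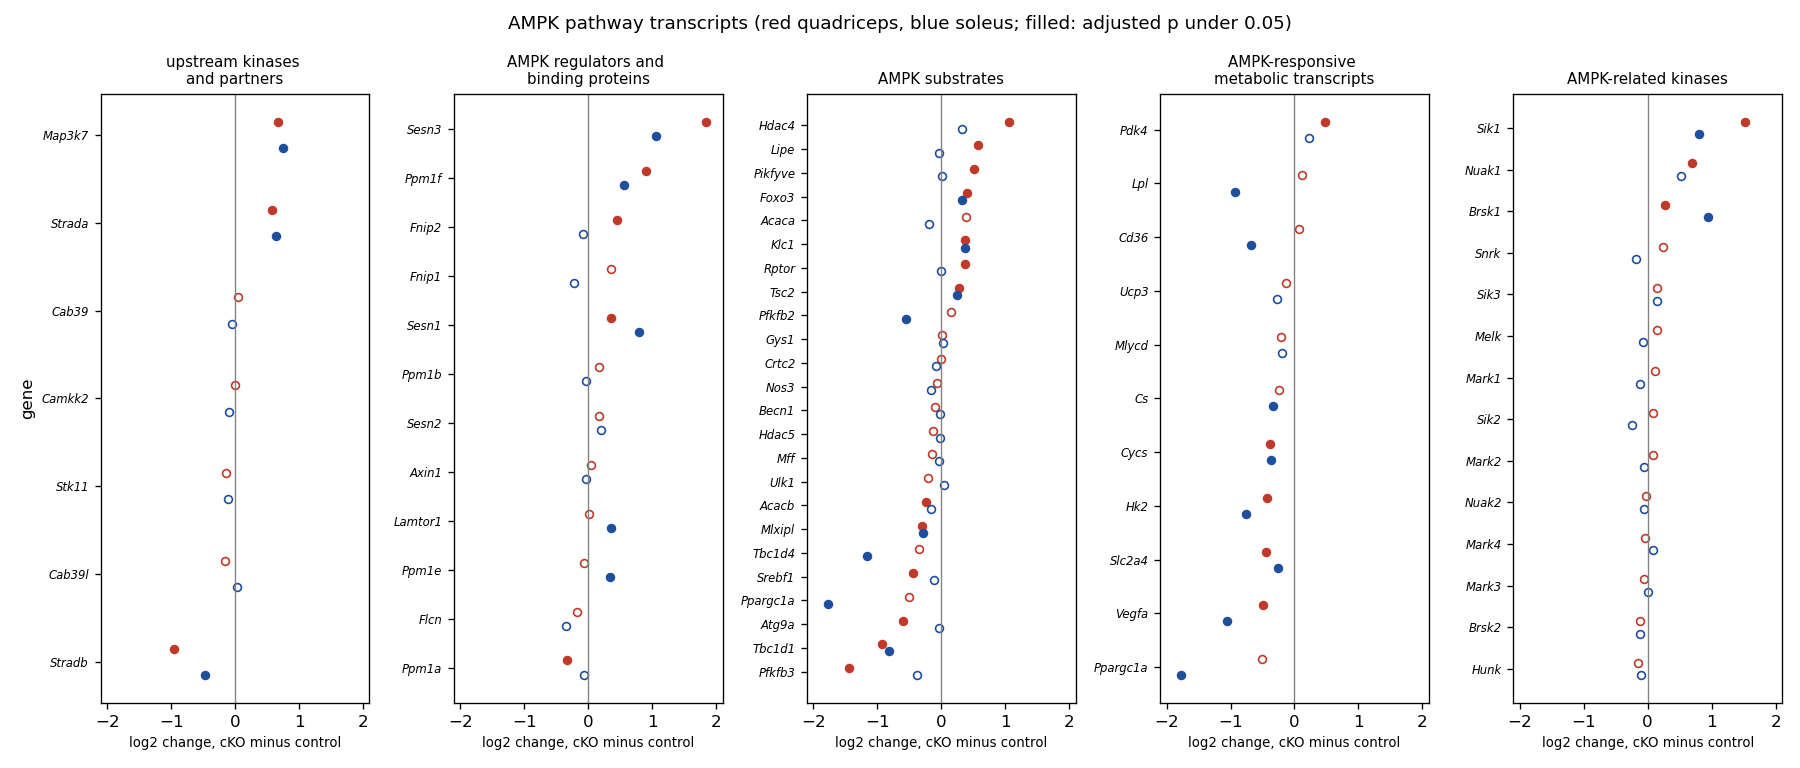
Log2 change, cKO minus control (horizontal axes), of the tested genes of 5 AMPK pathway lists in quadriceps (red) and soleus (blue), filled where the limma adjusted p is under 0.05. Sesn3 lies at 1.84 and 1.05 and Ppargc1a at -0.51 and -1.78, in quadriceps and soleus in that order.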

How the data were processed

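The authors deposited 1 linear intensity per probe set and array (35557 probe sets, values from 1.76 to 10075). Affymetrix Expression Console, RMA and build mm10 are named in the submitters' processing notes, without versions or settings. Intensities were turned to log2. Probe sets with 1 gene symbol (21789; 1621 had several and 12147 none listed here) were named through Entrez numbers (21698 matched RefSeq, GRCm38.p6), and 15999 of 19938 genes lay above the array's 30th percentile on at least 6 arrays. Sample titles gave the groups. A single limma fit with 4 group means (R 4.3.3, limma 3.58.1) gave all comparisons, with 20 residual degrees of freedom and p-values adjusted by Benjamini-Hochberg over the 15999 genes, two-sided. In simulated data the fit recovered 49 of 50 quadriceps changes at each of -1 and 1. At -0.5 and 0.5 it recovered 39 and 42 of 50, and 13 unchanged genes were called. The simulated noise was independent and normal, without paired muscles, a poor array or a muscle difference, so it does not test those features. The number of arrays limits precision: the median SE of a change was 0.10.

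The members and gene lists were chosen with earlier results of these data known, so p-values are not independent evidence for the choice. Named pathway genes are up to 4 called per list and muscle by smallest p, with Stk11 and Camkk2, and genes alike are the 3 highest and the lowest in r, also after group means were subtracted, with the largest changes of each marker list; the text names some of these. Listed genes without a probe set of their own, such as Cpt1b, Camkk1, Ly6a and Cfd, were not tested.

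Labels give numbers 1 to 6 in every group. Deviations of same-numbered quadriceps and soleus of 1 genotype correlated from 0.22 to 0.45 in cKO and from 0.16 to 0.31 in controls. Each quadriceps sample correlated most with the soleus sample of its own number and genotype. Same numbers also matched best between groups of different genotype, which cannot share an animal, for 3 or 4 of 6 samples. Whether a number marks 1 animal is therefore not settled, and the ages given for cKO number 4 differ. The fit behind the printed values has no animal term and treats the muscles as independent. A block for the animal, with each number of a genotype taken as 1 animal, is an alternative. Alternatives were scaling, filter, probe set choice, array weights, prior, blocks, fits on the compared groups and each array left out; overlaps and correlations without quadriceps control 4 were added after seeing the data.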

Additional observations from a re-analysis of the deposited data

Results flagged for a closer look

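Quadriceps control 4 lay far below the other 5 arrays of its group for both catalytic subunits, at 7.29 for Prkaa1 and 9.33 for Prkaa2. These were 2 of 28 member and group combinations examined, where chance flags about 1 in 20. The same array had the lowest quality weight of all.

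Knockout changes that differed between muscles by the test of the difference itself (quadriceps minus soleus, limma) were found for Prkab2 (-1.73, adjusted p = 5.21e-08) and Prkag3 (-1.03, adjusted p = 0.00465) among the subunits. Over all genes kept 12.3% passed this test, 7.39% positive and 4.89% negative. The named pathway genes, apart from Stk11 and Camkk2, were picked by smallest p within a muscle. That choice favours genes with a large change in 1 muscle, so their number here is no measure of the lists. Among named pathway genes the difference was negative for Stradb (-0.48), Atg9a (-0.56) and Brsk1 (-0.67). It was positive for Sesn3 (0.79), Fnip2 (0.53), Hdac4 (0.73), Pikfyve (0.50), Tbc1d4 (0.81), Vegfa (0.57), Lpl (1.04) and Cd36 (0.75), with adjusted p between 0.000397 for Lpl and 0.0389 for Vegfa.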

How the results depend on the processing

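The calls of Prkab2, Prkag3, Prkaa2 and Prkaa1 named for the knockout held their direction and side of the threshold under 11 alternatives and with each array left out. Over the left-out arrays the quadriceps changes ran from -1.07 to -0.80 for Prkag3, -0.83 to -0.59 for Prkaa2 and 0.40 to 0.60 for Prkaa1, and the soleus change of Prkab2 from 0.77 to 0.85. The count of subunits called ran from 4 to 6 in quadriceps and from 2 to 4 in soleus over all settings. Values that changed sign were small and uncalled under every setting. With array weights Prkab1 in quadriceps was 0.0347 (from -0.0866 to 0.0207 over left-out arrays), and the difference of changes was -0.0101 and -0.0139 for Prkag1 under median and 75th percentile centring (from -0.00648 to 0.0896 over left-out arrays), -0.0132 for Prkag2 after quantile normalization, and from -0.184 to 0.0551 for Prkaa2 over left-out arrays. After quantile normalization soleus minus quadriceps was 0.0203 for Prkag1 in controls and 0.0197 for Prkab1 in cKO mice. The causes were not tested. With the animal as a random replicate block (correlation 0.195) the counts stayed at 4 in quadriceps, 3 in soleus and 2 for the difference, and no subunit call changed. With the number as a fixed replicate block Prkag1 in quadriceps (adjusted p = 0.0431) and Prkag2 in soleus (adjusted p = 0.0253) passed too. Calls were gained for Prkaa1 in soleus minus quadriceps of controls after quantile normalization (0.28, adjusted p = 0.0415) and for Prkag2 in soleus with array weights (adjusted p = 0.0250). Of the alternatives, 4 were run for the pathway lists, where no count moved by over 1.5 times.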
